A study of Mus musculus with 2 samples.

Results

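The heavy and light chain constant genes of immunoglobulin, with Jchain, were followed cell by cell in a mouse lung library and set beside a gastrocnemius muscle library. The set was chosen by name and holds 10 of the 55416 genes listed: the heavy chain genes Ighm, Ighd, Ighg1, Ighg2b, Ighg2c, Ighg3 and Igha, the light chain genes Igkc and Iglc2, and Jchain. All 10 were found in both libraries. The labels call the animals TB mice and give CAC mouse model as genotype for both tissues. Cells were freed with Liberase TL and DNase I, red cells were lysed, and CD45 positive cells were taken with magnetic beads before 10x Genomics 5' v2 library preparation. Treatment, strain, age and the number of animals are not stated in the labels. There was 1 library per tissue, so no difference was tested. Brackets hold exact 95% intervals, which cover counting error only.

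A B cell joins a variable segment to Ighm and Ighd and first makes IgM and IgD from a shared transcript. Class switching then replaces these by one of the downstream constant genes, which lie in the order Ighg3, Ighg1, Ighg2b, Ighg2c, Ighe and Igha in the C57BL/6 heavy chain locus. The heavy chain pairs with a kappa chain, whose constant gene is Igkc, or with a lambda chain, whose constant genes in mice include Iglc1, Iglc2 and Iglc3. Plasma cells transcribe these genes at very high levels, and Jchain encodes the joining chain that links IgM and IgA into polymers for transport across mucosal epithelium, as in the airways.

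The IgG and lambda constant genes are close copies, so the isotype and light chain calls rest on a limited number of bases. A 5' library reads from the start of the transcript through the variable segment, and the first bases of the constant region are those nearest to it. The first 90 bases of the coding constant region are given for the 4 IgG genes, 5′ to 3′, with capitals at the 29 positions where they are not all alike.
Ighg1: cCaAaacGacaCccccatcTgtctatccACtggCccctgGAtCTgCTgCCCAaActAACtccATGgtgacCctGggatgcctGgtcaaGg
Ighg2b: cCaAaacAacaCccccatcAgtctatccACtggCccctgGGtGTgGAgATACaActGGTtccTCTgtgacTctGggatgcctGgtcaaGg
Ighg2c: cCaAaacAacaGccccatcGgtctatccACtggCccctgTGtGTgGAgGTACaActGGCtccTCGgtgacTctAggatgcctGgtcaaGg
Ighg3: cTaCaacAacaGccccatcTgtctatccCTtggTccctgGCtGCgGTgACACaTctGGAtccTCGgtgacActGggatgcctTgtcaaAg
The 4 IgG sequences matched pairwise at 74.4% (Ighg1 and Ighg3) to 92.2% of these bases, the latter for Ighg2b and Ighg2c, which share 83 of 90. For the lambda genes the capitals mark the 21 positions that are not alike in all 3.
Iglc1: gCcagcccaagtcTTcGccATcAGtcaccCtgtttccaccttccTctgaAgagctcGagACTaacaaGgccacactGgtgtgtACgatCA
Iglc2: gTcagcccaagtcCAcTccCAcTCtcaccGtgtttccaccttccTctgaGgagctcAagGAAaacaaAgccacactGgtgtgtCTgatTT
Iglc3: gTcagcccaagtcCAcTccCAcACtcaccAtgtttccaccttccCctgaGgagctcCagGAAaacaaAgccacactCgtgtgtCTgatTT
Iglc2 and Iglc3 matched at 94.4% of the 90 bases and at 96.0% of the first 250 bases, with a shared run of 79 bases. Iglc1 matched Iglc2 at 78.9%. Reads in a shared stretch do not tell the copies apart, and how they were counted is not stated. Iglc2 counts carry that uncertainty most, and splits among Ighg2b, Ighg2c and the other IgG genes carry it to a lesser degree. The sequences are those of GENCODE M21 transcripts on build GRCm38.

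The lung library held 8481 barcodes and 34751225 UMIs (unique molecular identifiers, counted molecules). Barcodes with 200 genes or more and no more than 10% mitochondrial UMIs were taken as cells, 8194 in lung, and their median was 2286 UMIs. The muscle library kept 2243 of 5547 barcodes, with a median of 3106 UMIs. The libraries shared 64 barcodes, of which 60 were kept in lung, 4 of them B cells and none of them plasma cells. In lung the 10 genes took 111769 UMIs, 0.327% of all, and in muscle 99 UMIs.

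Plasma cells were cells with at least 3 Jchain and 2 Mzb1 UMIs, and B cells were the remaining cells with at least 2 UMIs of Cd79a and Cd79b, the signalling subunits of the B cell receptor. The lung held 26 plasma cells (0.317% of kept cells, 0.207 to 0.465) with a median of 18734 UMIs, and 750 B cells (9.15%, 8.54 to 9.80) with a median of 2354 UMIs. Each gate carried its marker genes: Bank1 stood at 1333 CPM (UMIs of a gene per 1000000 UMIs of the same cells) in B cells and 18.0 CPM in plasma cells, and Pax5 at 456 and 12.0 CPM. Of plasma cell markers outside the gate's rule, Xbp1 stood at 1163 CPM in plasma cells and 184 CPM in B cells, Slamf7 at 150 and 29.5 CPM and Sdc1 at 114 and 30.3 CPM. Tnfrsf17 was seen in 4 of 26 plasma cells and was at 0 in B cells. No doublet caller was run. Of the B cells 159, and of the plasma cells 11, also met a gate for T cells, neutrophils, macrophages, epithelium, endothelium or fibroblasts. Among plasma cells 8 met the epithelial gate through Epcam, which was seen in 13 of the 26, while Krt8, Cldn4 and Sftpc were at 0 and Krt18 was seen in 2. The 5 neutrophil markers summed to 1403 CPM in plasma cells and 3075 CPM in B cells. The part of such cells in the results was not tested beyond leaving them out.

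The cells just inside and outside the gates differed in the level of the heavy chain. The 71 B cells with exactly 2 Cd79a and Cd79b UMIs held Ighm at 710 CPM, the 679 with 3 or more at 1849 CPM, and the 241 cells with 1 UMI, outside the gate, at 185 CPM. At the plasma cell gate, 9 cells had at least 3 Jchain UMIs with Mzb1 below 2, and 28 cells had at least 2 Mzb1 UMIs with Jchain below 3. All 28 of the latter held Ighm, at 2399 CPM in sum.

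Most heavy chain transcripts of the lung came from few cells. The 26 plasma cells held 81.1% of Ighm UMIs, 92.9% of Ighg1, 99.3% of Ighg2b, 88.6% of Igha, 87.2% of Igkc and 96.0% of Jchain. Ighm (ENSMUSG00000076617) stood at 50483 CPM (49862 to 51110) in plasma cells and 1725 CPM (1675 to 1776) in B cells, and 94.4% of B cells had at least 1 UMI. Ighd (ENSMUSG00000104213), made with Ighm by naive B cells, had the reverse order: 671 CPM (640 to 703) in B cells, 78.0% of them positive, and 6.0 CPM (1.24 to 17.5) in plasma cells, where its 3 UMIs sat in 1 IgA cell. B cells held 90.8% of Ighd UMIs.

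The switched genes were plasma cell genes almost throughout. Ighg1 (ENSMUSG00000076614) stood at 25411 CPM in plasma cells and 21.5 CPM in B cells, Ighg2b (ENSMUSG00000076613) at 9823 and 9.20 CPM, and Igha (ENSMUSG00000095079) at 11416 and 16.1 CPM. Of the Igha UMIs in plasma cells 71.7% came from 1 cell. Ighg2c (ENSMUSG00000076612) stood at 8180 CPM in plasma cells, 99.9% of it from 1 cell, and at 643 CPM in B cells, where 1 cell held 1667 of 1677 UMIs. Without that cell Ighg2c was at 3.86 CPM in B cells. Ighg3 (ENSMUSG00000076615) was the rarest member: 10 UMIs in 7 B cells (3.84 CPM, 1.84 to 7.05) and 0 in plasma cells, where the interval reached 7.37 CPM.

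Igkc (ENSMUSG00000076609) stood at 61736 CPM (61049 to 62428) in plasma cells and 1481 CPM (1434 to 1528) in B cells, or 1143 CPM without the Ighg2c cell above. Iglc2 (ENSMUSG00000076937) was the member with the least difference among those seen in over 100 cells: 388 CPM (335 to 446) in plasma cells and 647 CPM (616 to 678) in B cells, an order that turned over totals without immunoglobulin genes, at 713 and 653 CPM. The order of plasma and B cells was the same under both totals for the other members. Jchain (ENSMUSG00000067149) stood at 19750 CPM in plasma cells, which its use in the gate sets in part. In B cells it was at 80.9 CPM, seen in 1.20% of cells, and at 7.71 CPM without the Ighg2c cell, which alone held 191 of the 211 UMIs.

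**Figure D1:**
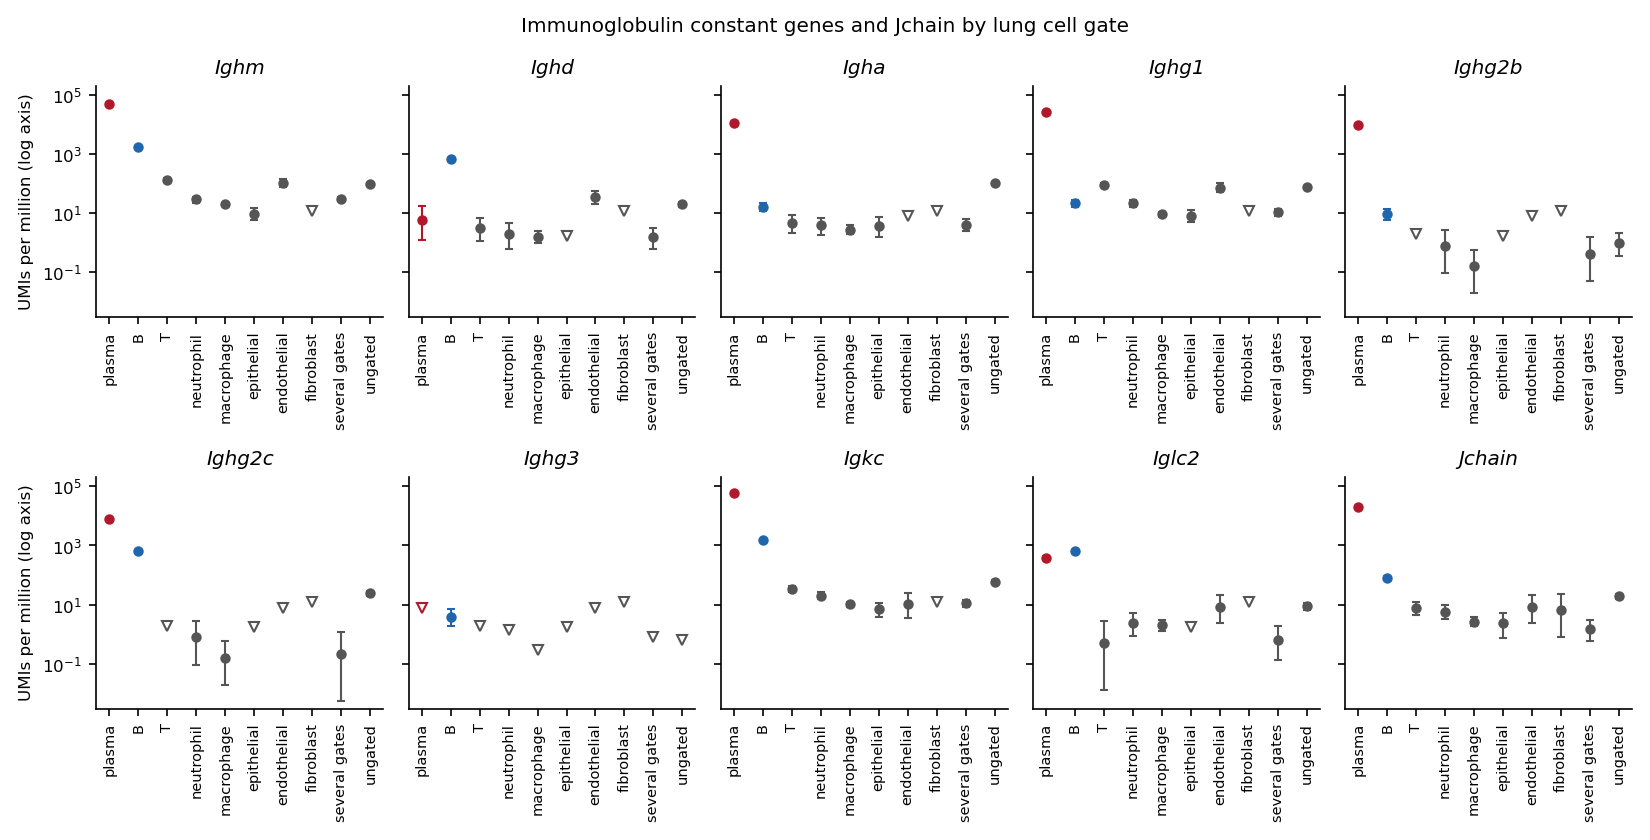
Level of each gene in lung cells by gate, in CPM on a log axis, with exact 95% intervals; open triangles mark the upper end of the interval where no UMI was counted. Plasma cells (red) are highest for Ighm, Igha, Ighg1, Ighg2b, Ighg2c, Igkc and Jchain, and B cells (blue) for Ighd and Iglc2, though Iglc2 turns to 713 against 653 CPM when totals leave immunoglobulin genes out. Ighg3 was seen in B cells alone.

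Outside these gates Ighm was ordered as T cells, endothelial cells, ungated cells, cells in several gates, neutrophils, macrophages, epithelial cells and fibroblasts, and 4 of the 9 neighbouring pairs of its full order had overlapping intervals. For Ighd 8 of 9 neighbouring pairs overlapped, for Ighg3 all 9, and for the other members 4 to 7. The plot of levels by gate shows that the genes differ mainly by the gap between plasma cells, B cells and the rest.

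Lung B cells were nearly all IgM or IgD cells by their transcripts. A heavy chain class was called where a cell held at least 2 heavy constant UMIs and 1 class held at least 60% of them, with Ighm and Ighd as 1 class. Of 750 B cells 706 were called, 2 were mixed and 42 had too few UMIs. The IgM/IgD class took 696 cells (98.6%, 97.4 to 99.3), IgG1 took 4, IgA 3, IgG2c 2, IgG2b 1 and IgG3 0. The share stayed between 98.0% and 99% over 15 alternative filters, gates and call rules.

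Ighm and Ighd were mostly found together. Both were seen in 570 B cells (76.0%, 72.8 to 79), Ighm alone in 138, Ighd alone in 15 and neither in 27. Ighm was above Ighd in 550 cells, Ighd was above Ighm in 103, and 70 held equal counts. A smaller number had much Ighm and no Ighd: of 113 cells with at least 10 Ighm UMIs, 27 had Ighd at 0. A median B cell held 5 Ighm and 2 Ighd UMIs.

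The balance of Ighm and Ighd differed in B cells with Bhlhe41, Zbtb32, Fcer2a, Vpreb3 or Cd9, and not by every gene looked at. The 26 B cells with Bhlhe41, a transcription factor of B-1 cells, held Ighm at 3142 CPM (2852 to 3454) and Ighd at 337 CPM (247 to 449), and the 724 without it 1647 and 690 CPM. The 15 cells with Zbtb32 held Ighm at 3130 CPM and Ighd at 181 CPM (96.3 to 309). The 173 cells with Fcer2a, the low affinity IgE receptor of follicular B cells, held less Ighm (1555 CPM, 1459 to 1656) and more Ighd (861 CPM, 790 to 937) than the 577 without it (1779 and 611 CPM). Zbtb32, a transcription factor also known from B-1 and memory cells, marked few cells. The 21 cells with Mki67, a gene of dividing cells, held both at low levels, 554 and 233 CPM, with a balance like that of the rest: Ighd took 29.6% (21.8 to 38.4) of the sum of both, against 28.0% in cells without Mki67. With and without Xbp1 it took 26.9% and 28.4%. Cells with Bhlhe41, Zbtb32 or Mki67 were deeper, at medians of 4012, 5007 and 4744 UMIs, and the part of depth in these differences was not tested. Cells with Cd9 (208, median 3996 UMIs) also held less of both, 1089 and 361 CPM, against 2313 and 958 CPM in the 542 without. Ighd took 24.9% (22.9 to 26.9) of the sum with Cd9 and 29.3% (28.0 to 30.7) without. With and without Vpreb3 it took 31.2% (29.3 to 33.1) and 26.0% (24.7 to 27.5). The 18 cells with Cd5 (median 8032 UMIs) differed from those with Bhlhe41 or Zbtb32. They held less Ighm, 920 against 1771 CPM without Cd5, and Ighd took 24.0% (17.8 to 31.1) against 28.1%. The genes named here are a part of 13 looked at, picked from knowledge of B cell subsets with results in view.

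Light chain use in B cells depended on which lambda genes were counted. By Igkc and Iglc2 alone, with the same rule of 2 UMIs and 60%, 386 B cells were kappa, 107 lambda, 132 mixed and 125 had too few UMIs, a kappa share of 78.3% (74.4 to 81.9). With Iglc1 and Iglc3 added, 263 were kappa, 213 lambda and 175 mixed, and the kappa share fell to 55.3% (50.7 to 59.8). Igkc and Iglc2 were seen together in 481 of 750 B cells (64.1%), Igkc alone in 155 and Iglc2 alone in 50.

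The variable segments gave another picture than the constant genes. Of the B cells, 509 held at least 2 Igkv UMIs and no Iglv UMI, and 21 held at least 2 Iglv UMIs and no Igkv UMI. Igkc separated these groups: it was seen in 93.3% of the Igkv cells (1439 CPM, 1382 to 1497) and 14.3% of the Iglv cells (58.1 CPM, 18.9 to 135). Iglc2 did not separate them: 389 Igkv cells (76.4%, 72.5 to 80.05) and 17 Iglv cells (81.0%, 58.1 to 94.6) were positive, at 770 CPM (729 to 813) and 894 CPM (706 to 1117). Iglc3 was alike, at 472 and 418 CPM. Iglc1 was lower in the Igkv cells (109 CPM, 19.6% positive) than in the Iglv cells (314 CPM, 207 to 456, 61.9% positive). Median depth was 2349 UMIs in the Igkv cells and 2444 UMIs in the Iglv cells. In neutrophils, which should lack the gene, Iglc2 was seen in 0.382% of cells at a median of 2164 UMIs, so the Iglc2 of Igkv cells was far above the level in other cells.

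**Figure D2:**
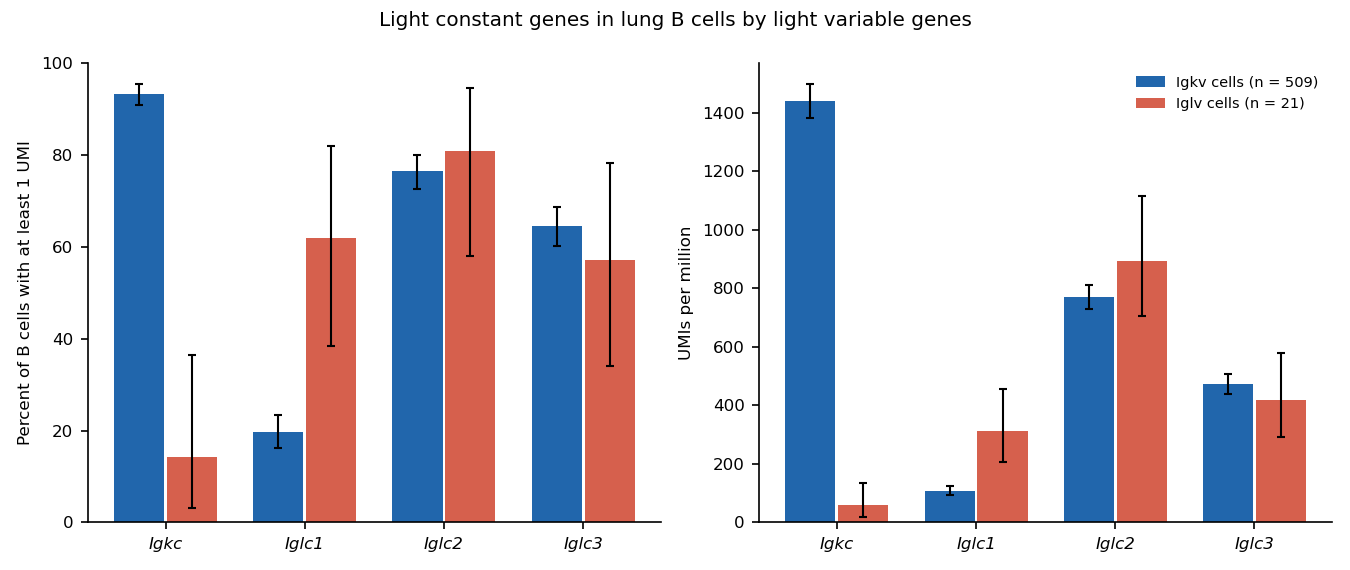
Light chain constant genes in lung B cells grouped by variable segments (blue, 509 cells with Igkv; red, 21 cells with Iglv), as percent of cells with at least 1 UMI (left) and CPM (right), with exact 95% intervals. Igkc is high in the blue bars and low in the red, and Iglc2 and Iglc3 are at similar heights in both.

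Nearly every plasma cell carried 1 heavy class. Of the 26 plasma cells 25 were called: 10 IgM/IgD (40.0%, 21.1 to 61.3), 13 IgG (52.0%, 31.3 to 72.2) and 2 IgA (8.0%, 0.984 to 26.0). The IgG cells were 8 IgG1, 4 IgG2b and 1 IgG2c, and no cell was IgG3. The leading class held at least 95% of heavy constant UMIs in all 25 and at least 99% in 19. Immunoglobulin genes with their variable segments took 1.41% to 64.4% of the UMIs of a plasma cell, with a median of 44.3%. The low value was the mixed cell, which held 10 Ighm, 5 Igha and 7 Ighg2b UMIs among 12611 UMIs, with 37 UMIs of Cd79a and Cd79b.

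Several plasma cells shared their leading variable genes. In 9 of them Ighv1-15 led the heavy and Igkv1-110 the light variable UMIs. Of these 9, 7 were IgM/IgD and 2 were IgA, so that both IgA cells and 7 of 10 IgM/IgD cells shared 1 pair. Ighv1-15 held 88.9% to 95.7% of their Ighv UMIs, and Ighv1-23 held most of the rest, 6.54% in sum. Without these 9 cells the shares were 18.8% IgM/IgD, 81.2% IgG and 0 IgA of 16 called cells. Among IgG cells, 3 IgG1 cells shared Ighv1-26 with Iglv1, and 1 IgG1 and 1 IgG2b cell shared Ighv1-36 with Igkv4-91. The other leading pairs were each seen in 1 cell. B cells were more varied: the 63 with at least 2 Ighv and 2 Igkv UMIs had 59 different leading pairs, and no pair led in more than 2 cells. The pair of Ighv1-15 and Igkv1-110 also led in 2 B cells. A leading gene in a B cell can rest on as few as 2 UMIs, and the part of RNA from other cells was not tested. Whether cells with the same leading genes carry the same joined sequence cannot be read from gene counts.

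Small counts of another class appeared beside the main one. Among the 10 IgM/IgD plasma cells, 3 with Ighv1-15 held 23, 60 and 69 Igha UMIs beside 1054, 3320 and 4100 Ighm UMIs, and 1 held 33 Ighg2b beside 2849 Ighm UMIs. The largest such share in an IgG cell was 47 Ighg1 beside 1177 Ighg2b UMIs. The 2 IgA cells held 4094 and 1445 Igha UMIs, with 0 and 7 Ighm UMIs.

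**Figure D3:**
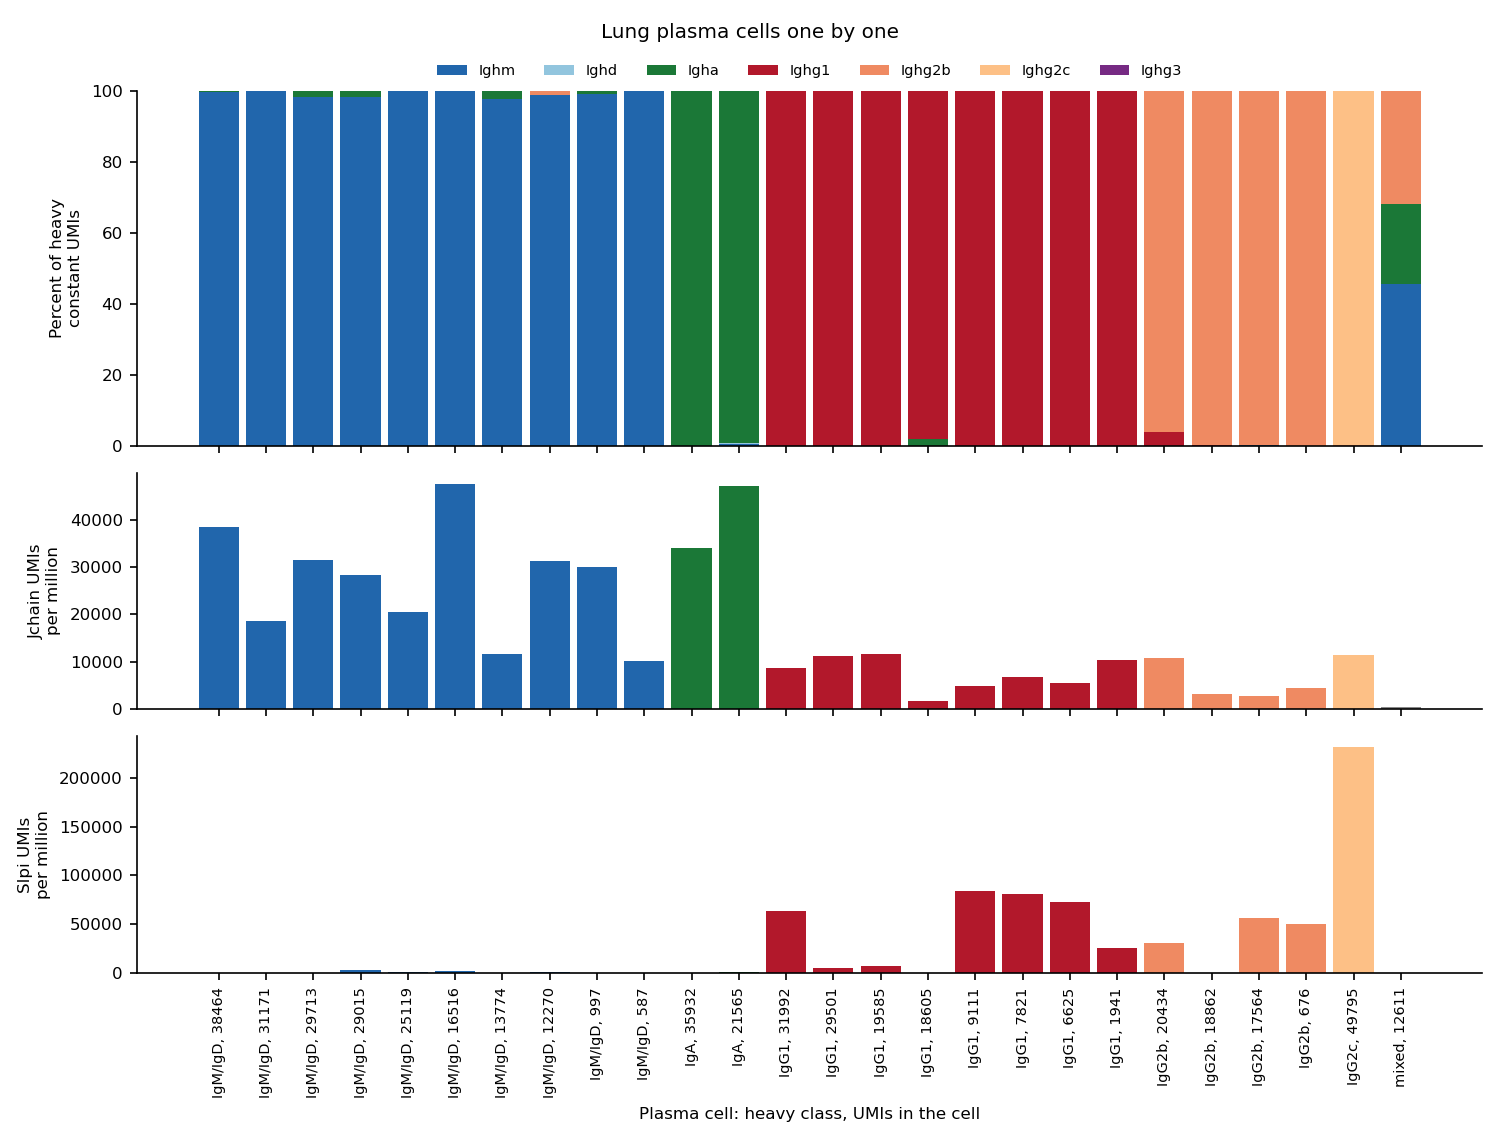
The 26 lung plasma cells ordered by heavy class and depth (cell labels give class and UMIs): share of heavy constant UMIs by gene in percent (top), Jchain (middle) and Slpi (bottom) in CPM. Nearly every cell has 1 colour in the top panel, Jchain bars are high in IgM/IgD and IgA cells, and Slpi bars are high in most IgG cells.

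In plasma cells the light chain was mostly kappa. By Igkc and Iglc2, 23 cells were kappa, 2 lambda and 1 mixed (kappa 92%, 74.0 to 99), and with Iglc1 and Iglc3 added 22 were kappa and 4 lambda. The 4 lambda cells were 3 IgG1 and 1 IgG2b, and all were led by Iglv1. Their lambda constant gene was Iglc1, with 928 UMIs, while Iglc3 held 52, Iglc2 held 9 and Igkc held 5. Iglc2 did not follow the variable segments here either: it stood at 371 CPM (170 to 705) in these 4 cells and at 389 CPM (335 to 449) in the 22 with more Igkv than Iglv. Iglv1 was also seen in 19 of those 22 cells, with 3578 UMIs and up to 820 in 1 cell, beside 197 Iglc1 UMIs.

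Jchain was higher in IgM/IgD and IgA cells than in most IgG cells. Per cell it ranged from 10221 to 47530 CPM with a median of 29193 in the 10 IgM/IgD cells, was 34064 and 47206 CPM in the 2 IgA cells, and ranged from 1720 to 11642 CPM with a median of 6777 in the 13 IgG cells. The IgM/IgD and IgG ranges overlap between 10221 and 11642 CPM. Summed over cells the level was 28847 CPM (28103 to 29606) in IgM/IgD, 38993 CPM (37396 to 40642) in IgA and 8305 CPM (7939 to 8684) in IgG. The 3 IgM/IgD cells not led by Ighv1-15 ranged from 18543 to 47530 CPM, so the higher level was not limited to the cells with that pair. Cells came from 1 library, and the gate of 3 Jchain and 2 Mzb1 UMIs leaves out IgG cells with less of either. IgG cells outside the gate, described below, ranged from 0 to 13137 CPM of Jchain. The highest was an IgG2c cell with 191 Jchain and 0 Mzb1 UMIs, above the IgG range given here. The ranges by class thus hold for cells inside the gate only.

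Slpi, the secretory leukocyte peptidase inhibitor of mucosal surfaces and neutrophils, split the plasma cells the other way. It passed 100 UMIs in 9 of 13 IgG cells, 0 of 10 IgM/IgD cells and 0 of 2 IgA cells. Per cell it ranged from 0 to 231168 CPM (median 50296) in IgG and from 0 to 2309 CPM (median 52.3) in IgM/IgD cells, and was 0 and 464 CPM in IgA cells. The IgG2c cell held 11511 UMIs, 65.8% of the Slpi of all plasma cells. In the whole lung 12 cells passed 100 Slpi UMIs, and 9 of them were plasma cells. Neutrophils were 54.6% positive at 1247 CPM, with at most 62 UMIs in a cell. Slpi was singled out because it was among the 5 genes with the largest ratio of plasma to B cells, and its split by class was seen before it was counted.

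Across all genes, plasma cells were set against B cells by the ratio of CPM. A gene was called when it stood at least 4-fold higher or lower, with an exact interval beyond 2-fold and no fewer than 30 UMIs on the higher side. Of 11233 genes with at least 10 UMIs, immunoglobulin and gate genes left out, 80 were higher (0.712%), 1647 lower (14.7%) and 1727 called in either direction (15.4%). Immunoglobulin took up much of the UMIs in plasma cells, and the median gene stood at -1.12 on the log2 scale. Over totals without immunoglobulin genes the median was -0.26, with 148 higher and 506 lower. With cells of other lineage gates left out, the median was -0.72, with 67 higher and 786 lower. How much each of these adds to the shift was not tested.

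The genes with the largest ratio toward plasma cells were Ada, Derl3, Oosp1, Csn3 and Slpi. Ada, adenosine deaminase, stood at 99.9 against 0.384 CPM (log2 ratio 8.03, 5.48 to 13.4) and was seen in 15 of 26 plasma cells and 1 of 750 B cells. Derl3, a component of the machinery that clears misfolded proteins from the endoplasmic reticulum, had a log2 ratio of 7.31 (5.92 to 9.21) and was seen in 18 plasma cells and 3 B cells. Oosp1 had a ratio of 6.84 (4.90 to 9.93), in 12 plasma cells and 1 B cell. Csn3, kappa casein, had 55 UMIs in 3 plasma cells and 0 in B cells. Its ratio was 6.58 against a floor of 3 UMIs over all B cells, with a lower limit of 6.23. All 3 plasma cells were led by Ighv1-15. Slpi had a ratio of 5.65. The genes with the largest ratio toward B cells were Clu, Mgp, Cxcl3, Mmp12 and Krt19, at -7.50 to -6.58 with 1 or 2 UMIs in plasma cells and intervals that ended between -5.02 and -4.09. They were seen in 25 to 124 of the 750 B cells, and single cells held up to 555 Clu, 451 Mgp and 249 Krt19 UMIs. The share of cells in this gate that also met another lineage gate is given above.

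Of the plasma cell programme 9 of 15 genes tested were higher and 1 was lower, with a median log2 ratio of 2.34. Over all genes 0.712% were higher and 14.7% lower, with a median of -1.12. The 9 were Prdm1 and Xbp1, transcription factors of the plasma cell fate, at 2.27 and 2.66, Slamf7 at 2.34, and genes of protein folding and secretion: Derl3, Fkbp11 at 4.97, Creld2 at 4.42, Txndc5 at 3.81, Sec11c at 3.48 and Edem1 at 3.06. Sdc1, the plasma cell marker CD138, stood at 1.91 (1.39 to 2.42) and Irf4 at 1.56, short of the size asked for. Cd38, named in the list, stood at -4.66 and was seen in 4 of 26 plasma cells and 280 of 750 B cells. Over totals without immunoglobulin genes 12 were higher, and without cells of other lineage gates 7.

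B cell identity genes went the other way, 15 of 16 lower and 0 higher, with a median of -4.01. Over all genes 14.7% were lower, with a median of -1.12. Pax5, which holds the B cell fate, stood at -5.25, Bank1 at -6.21, Cd22 at -5.84 (2 UMIs in plasma cells, -8.89 to -3.98), Ebf1 at -4.05 and Ms4a1 at -2.75. H2-Aa, of class II antigen presentation, stood at -4.29 and Ciita, its activator, at -3.64, while Cd74, the invariant chain, stood at -1.34 and was not called. Over totals without immunoglobulin genes 14 were lower, with Ms4a1 the one lost.

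Of the class switch and germinal centre genes 6 were tested. Mki67 was higher at 2.54 (1.92 to 3.17), with 48 UMIs in 10 of 26 plasma cells and 43 UMIs in 21 of 750 B cells, and was not called when cells of other lineage gates were left out. Bcl6, the germinal centre factor, was lower at -3.66. S1pr2, Ung, Batf and Fas were not called, and Gcsam and Rgs13 had too few UMIs to test. The median of the list was -0.45, beside -1.12 over all genes, of which 14.7% were lower and 0.712% higher. With 6 genes tested, 1 lower is near the share over all genes. Of homing and survival genes 8 were tested, 0 were higher and 3 lower: Cxcr4, which holds plasma cells in bone marrow, at -2.15, Itgb7 at -3.04 and Ccr2 at -4.83 (1 UMI, -10.14 to -2.33). Beside them stand the 14.7% of all genes called lower and the median of -1.12 over all genes. Their median was -1.79. Over totals without immunoglobulin genes only Ccr2 of the 3 was called, and without cells of other lineage gates 1 gene was lower. Ccr10, a receptor of mucosal plasma cells, had 15 UMIs in 6 plasma cells and 1 in B cells, too few for a call. Those 15 UMIs fell as 7 in IgG, 5 in IgM/IgD and 3 in IgA cells.

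Receptors and carriers of the antibodies were found in other cells. Fcmr, the IgM Fc receptor, stood at 293 CPM (273 to 315) in B cells, 52.1% positive, and had 2 UMIs in plasma cells (log2 ratio -6.20, -9.24 to -4.34). Fcer2a stood at 94.0 CPM in B cells and 0 in plasma cells. Pigr, which carries polymeric IgA and IgM across epithelium, stood at 183 CPM (166 to 202) in the epithelial gate, with 52 of 308 cells positive, and 0 in plasma cells. Fcgrt, the neonatal Fc receptor that recycles IgG, stood at 107 CPM in macrophages and 107 CPM in the 20 fibroblasts. Fcamr had 0 UMIs in each of the 8 single gates. All 4 genes tested of this list were lower in plasma cells (median -3.83), beside 14.7% of all genes and a median of -1.12. Fcer2a is also counted in the B cell identity list. Pigr had 97 UMIs in 23 of the 750 B cells, and the 696 IgM/IgD cells held 41 of them. Over totals without immunoglobulin genes 2 were lower, and without cells of other lineage gates also 2. Of survival factors for plasma cells, Tnfsf13 (APRIL) stood at 59.4 CPM in macrophages, 23.0% positive, and Il6 at 91.4 CPM in macrophages and 159 CPM in fibroblasts, 4 of 20 positive.

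Among other immunoglobulin genes Iglv1 stood at 6.16, Iglc1 at 4.31 and Iglv3 at 3.91 toward plasma cells, while Iglc3 at 0.34 and Vpreb3 at -0.25 were not called. Iglv2 stood at -1.98 with 8 UMIs in plasma cells and was not called. Ighe, the IgE constant gene, had too few UMIs to test.

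The 10 switched B cells were set against the 696 IgM/IgD B cells, and 5 of 10730 genes were higher (0.0466%) and 34 lower (0.317%), 0.363% in all. The 5 were Slpi, Gm30211, Maml2, Hsp90b1 and Ssr4. The largest count in any switched cell was 1455 of 1458, 73 of 88, 50 of 67, 71 of 81 and 33 of 36 of their UMIs. The cell with 1455 Slpi UMIs was the IgG2c cell of the B cell gate, and without it 4 genes were higher and 24 lower. Slpi cannot be among these 4, since too few of its UMIs were left for a call. The names of these 4 genes are not given here, and they need not be among the 5. The 5 with the largest ratio toward IgM/IgD cells were S100a9 (-4.76, -7.04 to -3.21), Mt1, Tyrobp, Thbs1 and Clu, with 1 to 3 UMIs in the switched cells. S100a9 and Tyrobp are myeloid genes, and in IgM/IgD B cells they were seen in 329 and 308 of 696. No gene of the plasma programme, B identity, germinal centre, Fc or homing lists was called, and with 50709 UMIs in the 10 cells this does not show that they did not differ. Iglv1 was called, at 8499 against 101 CPM, and was not called without the IgG2c cell. Medians of the lists are not given here because many members had 0 UMIs in 10 cells. IgA and IgM/IgD plasma cells were not compared across genes, since only 2 IgA cells were found.

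Antibody transcripts at a high level were also seen in 11 cells outside the plasma cell gate, each with at least 20 UMIs of a switched heavy gene. They were 8 IgG1, 2 IgG2c and 1 IgA cell, and 5 were ungated while the B, T, endothelial, macrophage, neutrophil and several-gate classes held 1 each. Their depth ran from 691 to 14539 UMIs, and the immunoglobulin share of UMIs from 0.430% to 63.5%. None had more than 1 Mzb1 UMI, and 8 had Jchain. Ighv14-2 led in 9 of them and Ighv14-2 with Igkv9-120 in 7, all IgG1. Neither gene led in a plasma cell: among the 27319 Ighv UMIs of plasma cells 0 were Ighv14-2, and 11 of 106390 Igkv UMIs (0.0103%) were Igkv9-120. Counted as plasma cells, these 11 moved the plasma cell share to 0.452% of kept cells, with 63.9% IgG and 27.8% IgM/IgD.

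Cells of other gates held antibody transcripts in smaller numbers. Whether these came from other cells or were made there was not tested. Among 1046 neutrophils, at a median of 2164 UMIs, 5.35% had an Ighm, 4.21% an Igkc and 2.49% an Ighg1 UMI. With each cell thinned to 1000 UMIs these were 2.48%, 1.45% and 1.66%. In macrophages the thinned shares were 2.61% for Ighm and 1.86% for Igkc, and in epithelial cells 2.07% and 1.04%. T cells were above these gates for Ighm: 29.1% were positive, and 11.7% (9.04 to 14.8) after thinning, while Igkc was at 2.92% (1.65 to 4.78). Endothelial cells had Ighm in 22.4% and, thinned, in 14.5% (7.18 to 25), with Igkc in 1.45%, and held Ighd at 34.2 CPM (19.5 to 55.5). In the 64 endothelial cells with no UMI of Cd79a, Cd79b, Mzb1 or Jchain the thinned Ighm share was 8.77% (2.91 to 19.3), and in the 472 such T cells 12.1% (9.32 to 15.4). Igkc was positive at 2 or more UMIs in 0.191% of neutrophils.

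**Figure D4:**
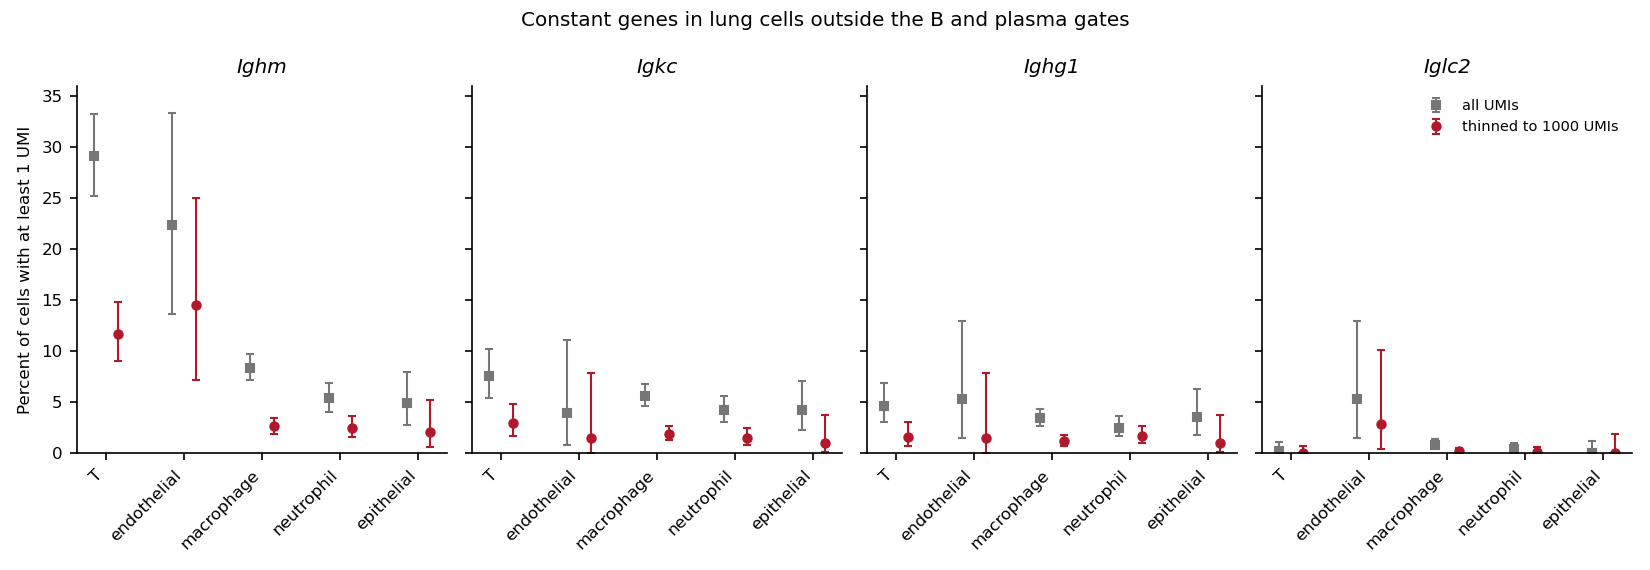
Percent of lung cells with at least 1 UMI of Ighm, Igkc, Ighg1 and Iglc2 in 5 gates, from all UMIs (grey squares) and after thinning each cell to 1000 UMIs (red circles), with exact 95% intervals. Ighm in T cells, 11.7% after thinning, and in endothelial cells, 14.5%, lies above the 2.07% to 2.61% of the other gates. Without cells that held Cd79a, Cd79b, Mzb1 or Jchain, endothelial cells were at 8.77% and T cells at 12.1%.

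The mix of genes differed between gates. Without the 11 cells above, Ighm took 38.5% (31.6 to 45.7) of the 195 UMIs of the 10 genes in neutrophils, 45.2% (41.0 to 49.5) of 557 in macrophages and 72.4% (67.5 to 76.9) of 362 in T cells, beside 27.0% in plasma cells. Ighm UMIs per Igkc UMI were 1.47 in neutrophils, 2.10 in macrophages and 5.82 in T cells, and 1.52 in B and 0.818 in plasma cells. The ratio was thus not the same in every gate. In cells with no UMI of Cd79a, Cd79b, Mzb1 or Jchain, Ighm remained at 138 CPM (121 to 157) in T cells, with 153 CPM (128 to 182) in Cd4 cells without Cd8a and 70.1 CPM (52.0 to 92.4) in Cd8a cells without Cd4. It was at 36.9 CPM (20.6 to 60.8) in endothelial cells, where it was 105 CPM with all cells counted, at 23.3 CPM in neutrophils and at 16.0 CPM in macrophages. The 472 such T cells held 242 Ighm and 36 Igkc UMIs. Ighm was not particular to T cells. In 61 cells with natural killer cell markers and no Cd3 it was at 69.9 CPM (41.4 to 110.5), with 21.3% positive. In 127 cells with at least 2 UMIs of the dendritic cell genes Flt3, Xcr1 and Clec9a it was at 55.4 CPM (43.1 to 70.1). In 150 cells with at least 3 UMIs of Ccr7 and Fscn1 it was at 20.9 CPM. In the 6 cells with at least 2 UMIs of Siglech, a plasmacytoid dendritic cell gene, Ighm was at 706 CPM (457 to 1041).

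The variable segments in these other cells were few. Outside the B and plasma cell gates and the 11 cells, 42.8% of 407 Ighv UMIs were Ighv1-15 and 20.1% Ighv14-2, and of 1963 Igkv UMIs 39.8% were Igkv1-110 and 25.4% Igkv9-120. Igkv1-110 took 37.1% of Igkv UMIs in neutrophils, 35.3% in macrophages and 35.2% in T cells, and Igkv9-120 took 24.9%, 25.2% and 28.6%. In B cells these genes took 9.19% and 4.76%. The leading kappa genes of other cells thus took similar shares in the 3 gates, and also led in the 9 Ighv1-15 plasma cells and in the 7 Ighv14-2 cells outside the gate.

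The genes most like the members across the 8194 lung cells were those of their main cell types. Over 15518 genes seen in at least 20 cells, the Pearson correlation of log scaled counts with Jchain was highest for Derl3 (0.52) and Mzb1 (0.50), then Pycr1 (0.32), Gm30211 (0.28) and Eaf2 (0.25). With Ighm it was highest for Cd79a (0.75), Ebf1 (0.69), Cd79b (0.67), Bank1 (0.66) and Ly6d (0.63), and with Ighd for Cd79a (0.76), Ebf1 (0.75), Bank1 (0.71), Cd79b (0.68) and Ly6d (0.62). The cells share a library and differ in depth, and Mzb1, Cd79a and Cd79b set the gates.

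Muscle held few antibody transcripts. Its 99 UMIs were 82 Ighm, 8 Igkc, 3 Ighd, 3 Iglc2 and 3 Jchain, with 0 of Igha and of the 4 IgG genes. It had 5 B cells (0.223% of kept cells, 0.0724 to 0.519), with Ighm at 775 CPM and Igkc at 443 CPM, and 0 plasma cells. For plasma cells the interval reached 0.164%, and 3 cells of 2243 would be 0.134%. These are shares of all kept muscle cells, not of leukocytes. The endothelial gate held 1072 of the kept cells (47.8%) and the fibroblast gate 249 (11.1%), though the labels give CD45 selection. Most muscle Ighm lay outside B cells: 222 macrophages without Cd79a, Cd79b, Mzb1 or Jchain held 58 UMIs, 37 of them positive (16.7%, 12.0 to 22.2), with 0 Igkc and 1 Ighv UMI. Ighm was at 0 in 47 neutrophils and 1063 endothelial cells of the same kind. In muscle macrophages Ighm stood at 29.1 CPM (22.1 to 37.7), and after thinning 3.20% of them were positive.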

How the data were processed

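The authors deposited UMI counts per gene and cell barcode for 1 lung and 1 muscle library. The submitters' processing notes name Cell Ranger 7.0.1 and build GRCm39. Which annotation release was used, whether introns were counted and how cells were called is not given in the sources used here. Counts were used as deposited, with Python 3.11.15, numpy 2.4.6, scipy 1.17.1 and pandas 2.3.3. Barcodes with 200 genes or more and no more than 10% mitochondrial UMIs (37 genes) were taken as cells. The other gates asked for 3 UMIs of Cd3 genes (T), 1% S100a8 and S100a9 UMIs with Csf3r (neutrophil), and 3 UMIs of macrophage, epithelial or endothelial or 5 of fibroblast markers. Levels are summed UMIs of a gene over summed UMIs of all genes of the same cells, in CPM, with exact Poisson intervals. Shares have Clopper-Pearson intervals and ratios conditional binomial intervals, all 95% and for counting error only. Depth was 34751225 UMIs in lung and 14056163 in muscle, so a level from 3 UMIs in plasma cells, 6.0 CPM, ran from 1.24 to 17.5. Genes at 0 on 1 side of a ratio entered at a floor of 3 UMIs. The across-gene step was tested on simulated data. Doublets were not removed; cells meeting another lineage gate, and those above the 99th percentile of UMIs, were left out as alternatives.

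The genes named were all 10 members, the 5 with the largest called ratio in each direction, the 5 with the highest correlation with Jchain, Ighm or Ighd, the leading variable gene per plasma cell, and members of 6 lists (plasma cell programme, B cell identity, class switch, Fc handling, homing and other immunoglobulin genes). Some list members are not reported here. Members, lists and rules were chosen with earlier results of these data known. Slpi by class, the 11 cells outside the gate and the B cell subset genes were taken up after their values were seen.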

Additional observations from a re-analysis of the deposited data

How the results depend on the processing

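Of 141 alternatives, 124 kept their value within its interval (1.5 times for counts of genes) and 17 did not. Some of the 124 could not move. The share of Ighm among the 10 genes does not depend on the totals behind CPM, and neutrophils by rule meet no other gate. Class shares of plasma cells have wide intervals, so staying within them says little. The cause was not tested except where the setting itself removes cells. The B cell share of 9.15% was 11.1% with at least 500 genes per cell, 7.37% without cells of another lineage gate, 12.1% and 7.42% with Cd79a and Cd79b at 1 or 4 UMIs, and 10.0% with a gate on other B cell genes. The plasma cell share was 0.187% without cells of another lineage gate. Without the cells led by Ighv1-15, chosen after seeing the data, IgM/IgD fell to 18.8%, IgA to 0 and IgG stood at 81.2%. The kappa share of B cells was 73.4% thinned and 55.3% with Iglc1 and Iglc3, and that of plasma cells 100.0% thinned. Igkc-positive neutrophils were 1.45% thinned and 0.191% at 2 UMIs. Genes called between plasma and B cells, 1727 in the main count, were 654 over totals without immunoglobulin genes and 853 without cells of another lineage gate. Genes called between switched and IgM/IgD B cells, 39 in the main count, were 185 with no minimum on counts.

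With 26 plasma cells, 2 of them IgA, shares by class have wide intervals. The 4 alternatives of IgA against IgM/IgD plasma cells were not run for want of cells. No paired analysis was possible because each tissue has 1 library. Near copies among IgG and lambda genes, free RNA and doublets limit single-cell calls, and a UMI count of 0 in a cell is not absence.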
